A study of Arabidopsis thaliana with 18 samples.

Results

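The 10 Aux/IAA repressor genes described here were taken by their locus identifiers from the 33602 genes of the expression table, which holds 29 Aux/IAA genes in the lists used. They are IAA1 (AT4G14560), IAA2 (AT3G23030), IAA3 (AT1G04240), IAA4 (AT5G43700), IAA6 (AT1G52830), IAA7 (AT3G23050), IAA17 (AT1G04250), IAA19 (AT3G15540), IAA29 (AT4G32280) and IAA34 (AT1G15050). Transcript levels came from RNA sequencing of whole Arabidopsis seedlings of the Columbia strain on day 7. The genotypes were a PIF4-/- mutant (pif4), a BBX18-/-BBX23-/- double mutant (bbx18 bbx23) and the wild type. Each genotype was sampled at 29 °C and at 22 °C with 3 libraries per group, which gives 6 groups and 18 libraries. The sources used here do not give the alleles behind the mutants, the time spent at 29 °C, the hour of harvest or whether the 3 replicates were separate batches of plants. The study asks how the B-box proteins BBX18 and BBX23 and the factor PIF4 bear on growth of the hypocotyl in the warm.

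Aux/IAA proteins are short-lived nuclear repressors. They bind auxin response factors, the ARFs, and recruit TOPLESS co-repressors, which keeps auxin target genes off. Auxin glues the degron of an Aux/IAA protein to the F-box receptors TIR1 and AFB, the repressor is destroyed and the ARFs are freed. Many Aux/IAA genes are themselves early auxin targets, so their transcripts are widely read as markers of auxin response. PIF4, a factor of the basic helix-loop-helix family, binds G-boxes and the related PBE-boxes and is known to raise auxin synthesis and growth in warm hypocotyls.

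IAA19, named MSG2 from a mutant with altered hypocotyl bending, and IAA7, named AXR2 from an auxin-resistant mutant, were both higher at 29 °C in the wild type and lower in pif4 at 29 °C in the tests that follow, so their upstream DNA is shown first, with that of IAA6 (SHY1), the gene whose transcript gave the longest match to IAA19. Each line gives the 300 bases before the annotated gene start, read 5′ to 3′ on the strand of the gene, from the RefSeq TAIR10.1 assembly. IAA19 and IAA7 lie on the plus strand of chromosome 3 and IAA6 on the minus strand of chromosome 1. Capitals mark every match to CACGTG (G-box), CACATG (PBE-box) and the auxin response elements TGTCTC and TGTCGG, each searched on both strands.
IAA19: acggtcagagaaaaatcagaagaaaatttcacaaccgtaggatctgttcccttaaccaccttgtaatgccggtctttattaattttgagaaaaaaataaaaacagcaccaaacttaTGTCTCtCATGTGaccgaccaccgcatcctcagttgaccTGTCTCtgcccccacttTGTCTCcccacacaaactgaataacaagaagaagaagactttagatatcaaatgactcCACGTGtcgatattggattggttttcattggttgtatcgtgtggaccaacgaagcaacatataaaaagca
IAA7: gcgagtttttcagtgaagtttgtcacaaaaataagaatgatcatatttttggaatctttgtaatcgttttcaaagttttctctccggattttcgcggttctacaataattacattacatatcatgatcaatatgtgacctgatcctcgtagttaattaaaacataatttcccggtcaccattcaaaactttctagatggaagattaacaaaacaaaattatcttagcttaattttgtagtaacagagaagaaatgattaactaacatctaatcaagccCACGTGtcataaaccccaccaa
IAA6: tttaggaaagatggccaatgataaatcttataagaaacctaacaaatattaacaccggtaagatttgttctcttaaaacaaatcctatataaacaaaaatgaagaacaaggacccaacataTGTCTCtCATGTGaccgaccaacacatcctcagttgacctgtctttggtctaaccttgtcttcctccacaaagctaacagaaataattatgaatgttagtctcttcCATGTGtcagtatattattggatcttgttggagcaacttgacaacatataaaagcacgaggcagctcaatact
IAA19 held a G-box beginning 70 bases before the start, a PBE-box at 177 bases and TGTCTC at 184, 145 and 128 bases. IAA7 held a single marked element, a G-box at 22 bases. IAA6 held TGTCTC at 179 bases and PBE-boxes at 172 and 73 bases, with no G-box in this window. The IAA19 and IAA6 windows shared an unbroken run of 23 bases, taTGTCTCtCATGTGaccgacca, and these were the only 2 of 27443 upstream windows that contained it on either strand. The run was picked as the longest that these 2 windows share, so the count is a description and tests nothing. Of the 10 members, 2 had a G-box in the window against 7.09% of all 27443 windows. A PBE-box was found in 4 members (13.1% of all windows), TGTCTC in 5 (13.0%) and TGTCGG in 1 (4.91%). The PBE-box members were IAA19, IAA6, IAA3 and IAA4, and the TGTCTC members IAA19, IAA6, IAA34, IAA1 and IAA3. Of these, IAA1, IAA3 and IAA4 were called neither in the wild-type warm response nor between pif4 and the wild type at 29 °C. IAA34 was called in both and had no G-box or PBE-box in its 300-base window. With 1000 bases searched, IAA34 had PBE-boxes at 968, 751 and 599 bases and no G-box. In that longer window 8 members had a PBE-box (37.7% of all windows), 7 TGTCTC (39.6%) and 3 a G-box (14.8%). The 300-base window of IAA34, on chromosome 1, lay inside the annotated gene AT1G15060 on the same strand and is not shown. Its single TGTCTC is among the 5. A match is a run of letters in a window and was not tested as a binding site.

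The degron decides which of these repressors can be destroyed in response to auxin, and it also separates the members. In the coding sequences of TAIR10.1 its core, glycine, tryptophan and a pair of prolines followed by valine, isoleucine or leucine, was found in 9 of the 10 members. It was not found in IAA34, nor in 5 of the 19 other Aux/IAA genes, whose predicted proteins have long been classed as non-canonical. The coding DNA around the core is given for IAA19, its closest relative IAA6, IAA7 and IAA29, the members discussed most, with the core codons in capitals.
IAA19: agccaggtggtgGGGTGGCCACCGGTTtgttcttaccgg
IAA6: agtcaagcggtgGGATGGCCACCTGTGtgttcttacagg
IAA7: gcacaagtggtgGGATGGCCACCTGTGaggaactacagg
IAA29: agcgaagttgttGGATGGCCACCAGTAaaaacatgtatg

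Values are FPKM, reads per gene scaled to its length and to the reads of the library, so levels can be compared between genes. All 10 members passed the filter of at least 1 FPKM in at least 3 libraries, IAA6 with exactly 3 such libraries, all at 29 °C, IAA34 with 7, of which 6 were at 29 °C, IAA29 with 9 and the others with 18. IAA6 thus entered only through groups where it was high, and it and IAA34 kept their warm calls in the wild type when no filter was used. The authors' table gives no read totals; its smallest steps between values put a library at very roughly 15 to 26 M reads, given the exon lengths of the reference annotation. At that depth a single read of IAA6, IAA34 or IAA29 is worth about 0.03 to 0.078 FPKM, so their lowest values stand for a handful of reads. The targeted gene PIF4 read 9.32 ± 1.61 FPKM in pif4 and 17.4 ± 1.72 FPKM in the wild type at 29 °C (SD, n = 3 each), so transcript of the locus was still counted in the mutant. BBX18 ran from 16.4 to 20.9 FPKM in bbx18 bbx23 and from 27.7 to 30.4 FPKM in the wild type at 22 °C, overlapped between them at 29 °C and was called at neither temperature; BBX23 was listed at 0 in all 18 libraries and checks no label. Fold changes are log2 of FPKM + 1, 29 °C over 22 °C or mutant over wild type, with standard errors; this scale shrinks the change of scarce transcripts. "Rose", "fell" and "called" mean an adjusted p under 0.05 from limma over 19116 genes, and such p-values reflect the spread between these libraries alone.

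**Figure D1:**
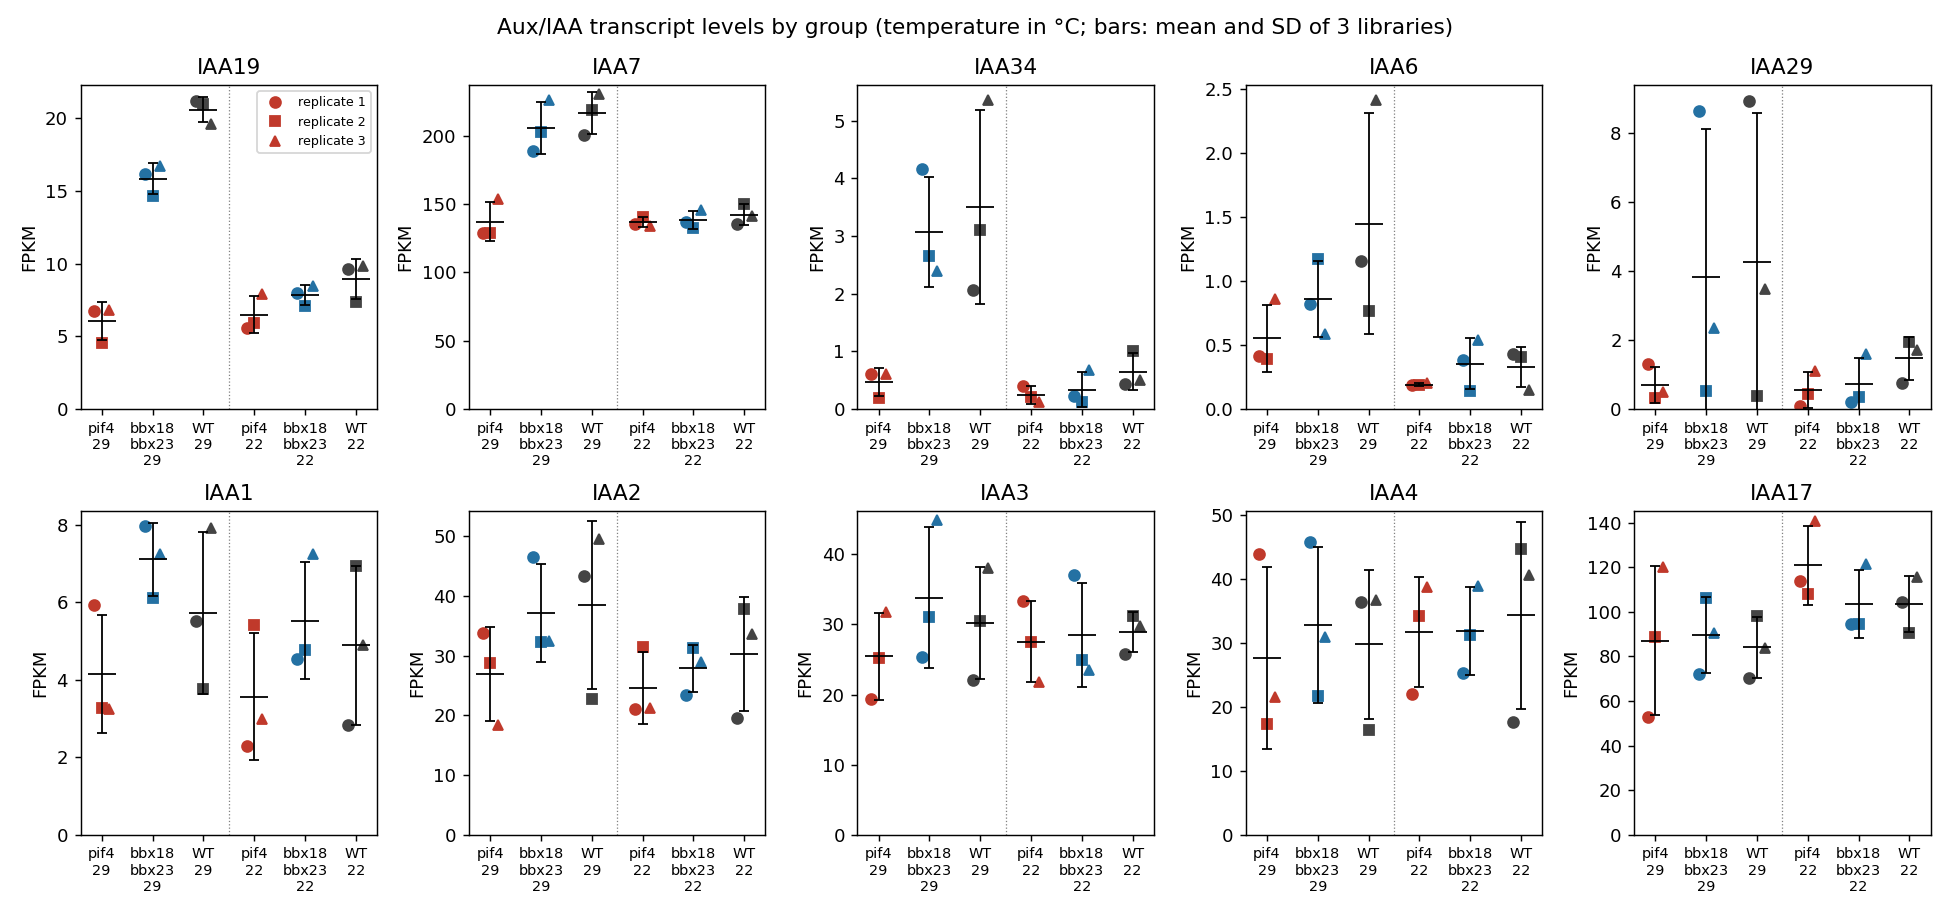
FPKM of each of the 10 Aux/IAA genes on a linear axis by group, with 1 point per library, the shape of a point giving its replicate number, a horizontal line for the mean and a bar for the SD of 3 libraries. IAA19, IAA7 and IAA34 stood high in the wild type and bbx18 bbx23 at 29 °C and low in pif4 at 29 °C, near their 22 °C levels, while IAA1, IAA2, IAA3, IAA4 and IAA17 overlapped between 29 °C and 22 °C in the wild type.

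The warm response of the wild type was asked first. IAA19, IAA7, IAA34 and IAA6 rose at 29 °C, by factors of 2.31, 1.52, 5.40 and 4.43 in mean FPKM, and no member fell. These 4 of 10 stand against 5.63% of all genes tested that rose, 8.55% that fell and 14.2% called in either direction. The members were chosen with earlier results of these data known, so the count describes them and does not test for an excess. The median log2 fold change of the 10 was 0.46, against -0.01 over all genes tested.

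IAA19 read 21.2, 21.0 and 19.6 FPKM in wild-type seedlings at 29 °C, against 9.61, 7.36 and 9.85 FPKM at 22 °C. All 3 warm libraries lay above all 3 cool ones, with a narrow spread in both groups. The log2 fold change was 1.13 ± 0.16 (adjusted p = 0.000135). IAA7, the most abundant member, read 200.2, 218.7 and 230.3 FPKM at 29 °C, against 135.0, 150.1 and 141.1 FPKM at 22 °C. Its groups did not overlap either, and the log2 fold change of 0.60 ± 0.11 had an adjusted p of 0.00117.

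The other risers were scarce transcripts. IAA34 read 2.05, 3.10 and 5.35 FPKM at 29 °C, against 0.427, 1.01 and 0.505 FPKM at 22 °C. The lowest warm library was above the highest cool one, and the log2 fold change was 1.40 ± 0.25 (adjusted p = 0.00122). IAA6 read 1.16, 0.769 and 2.42 FPKM at 29 °C, against 0.427, 0.405 and 0.149 FPKM at 22 °C. The groups did not overlap, and the change of 0.83 ± 0.21 had an adjusted p of 0.0139. Leaving out replicate 3 of the wild-type group at 29 °C (0.56, adjusted p = 0.0629) or of that at 22 °C (0.73, adjusted p = 0.0598) ended that call, as did a fit of the wild-type libraries alone (adjusted p = 0.088).

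The 6 members not called spanned -0.30 to 0.71. IAA17 (AXR3), the second most abundant member and known from an auxin-resistant mutant, averaged 84.1 ± 13.8 FPKM at 29 °C and 103.6 ± 12.8 FPKM at 22 °C, with overlapping libraries and a 95% interval of the log2 difference of -0.80 to 0.20. IAA3 (SHY2), a regulator of root meristem size, averaged 30.2 ± 7.97 FPKM at 29 °C and 28.9 ± 2.82 FPKM at 22 °C, with an interval of -0.49 to 0.55. IAA4, its near relative, averaged 29.7 ± 11.7 FPKM at 29 °C and 34.3 ± 14.6 FPKM at 22 °C, and the interval of -1.04 to 0.68 leaves room for a change as large as that of IAA7 in either direction. IAA1 (AXR5) averaged 5.73 ± 2.09 FPKM at 29 °C and 4.89 ± 2.06 FPKM at 22 °C. IAA2, the closest match of IAA1, averaged 38.5 ± 14.0 FPKM at 29 °C and 30.3 ± 9.52 FPKM at 22 °C. For both of these early auxin-induced genes the libraries overlapped, at 0.21 ± 0.30 for IAA1 and 0.32 ± 0.30 for IAA2.

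IAA29, a gene well known for its induction by shade through PIFs, was the most uneven member. It read 8.92, 0.38 and 3.48 FPKM in the wild type at 29 °C, against 0.753, 1.94 and 1.70 FPKM at 22 °C. A warm library was thus both the highest and the lowest of these 6. The log2 fold change of 0.71 ± 0.64 was not called (adjusted p = 0.526), with an interval of -0.63 to 2.06.

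These are whole seedlings, in which more transcript per cell and more cells of the type that makes it cannot be told apart. All 4 green tissue markers, RBCS1A, RBCS3B, LHCB3 and PSBO1, fell with temperature in every genotype; in the wild type their summed level was 20430 to 33790 FPKM at 29 °C and 45660 to 73670 FPKM at 22 °C. None of the 5 root markers tested was called in the wild type, at 1457 to 1950 FPKM for 6 summed genes at 29 °C and 1538 to 2097 FPKM at 22 °C. Most of that sum was PYK10, at 1413 to 1909 FPKM at 29 °C and 1496 to 2058 FPKM at 22 °C, so it says little of the other root genes. Seed markers summed to at most 1.49 FPKM in any library. The part of tissue makeup in the warm response was not tested.

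In bbx18 bbx23, IAA19, IAA7 and IAA34 were called higher at 29 °C, 3 of 10 members, and none was called lower, against 5.52% of all genes tested called higher, 8.06% lower and 13.6% in either direction. IAA19 read 16.2, 14.7 and 16.7 FPKM at 29 °C, against 7.99, 7.08 and 8.48 FPKM at 22 °C, a log2 fold change of 0.93 ± 0.16 (adjusted p = 0.000779). IAA7 read 188.7, 202.4 and 225.8 FPKM at 29 °C, against 137.0, 132.5 and 145.8 FPKM at 22 °C, a change of 0.56 ± 0.11 (adjusted p = 0.00216). IAA34 read 4.15, 2.65 and 2.39 FPKM at 29 °C, against 0.22, 0.118 and 0.674 FPKM at 22 °C, a change of 1.60 ± 0.25 (adjusted p = 0.000457). In each of the 3 the warm and cool libraries were fully separated.

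IAA6 in bbx18 bbx23 averaged 0.859 ± 0.294 FPKM at 29 °C and 0.355 ± 0.201 FPKM at 22 °C, with no overlap and a change of 0.46 ± 0.21 that was not called (adjusted p = 0.175). Its lowest warm library (0.585 FPKM) and highest cool library (0.539 FPKM) lay only about 1 read apart. IAA2 likewise did not overlap, at 37.1 ± 8.18 FPKM at 29 °C and 27.9 ± 4.0 FPKM at 22 °C, and was not called (0.39 ± 0.30, adjusted p = 0.441). IAA29 read 8.64, 0.516 and 2.35 FPKM at 29 °C, against 0.209, 0.353 and 1.58 FPKM at 22 °C, the same wide spread as in the wild type. Its change was 1.18 ± 0.64 (adjusted p = 0.251). The remaining IAA1, IAA3, IAA4 and IAA17 lay between -0.21 and 0.33, and the median of the 10 was 0.42, against 0.00 over all genes tested.

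In pif4 no member was called by limma in either direction, 0 of 10 against 13.2% of all genes tested (4.67% higher and 8.49% lower). The unadjusted p was under 0.05 for 1 member, IAA17, and for 5109 of the 19116 genes tested. IAA19 read 6.76, 4.51 and 6.81 FPKM at 29 °C, against 5.60, 5.92 and 7.93 FPKM at 22 °C. The groups overlapped fully, and the 95% interval of the log2 fold change, -0.43 to 0.23, lay below the wild-type estimate of 1.13. IAA7 read 128.4, 128.9 and 153.4 FPKM at 29 °C, against 135.4, 140.6 and 133.6 FPKM at 22 °C, with an interval of -0.23 to 0.23 that likewise left out the wild-type 0.60. An interval set against an estimate leaves out the error of the wild type and is not a test of the difference. That test is given below, where neither IAA19 nor IAA7 was called. IAA34 read 0.607, 0.186 and 0.612 FPKM at 29 °C, against 0.405, 0.207 and 0.114 FPKM at 22 °C, with an interval of -0.30 to 0.76.

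IAA6 was the member of the wild-type risers that kept apart by temperature in pif4. It read 0.413, 0.39 and 0.857 FPKM at 29 °C, against 0.184, 0.184 and 0.205 FPKM at 22 °C, 2.90-fold in mean FPKM. All 3 warm libraries were above the cool ones, but the cool values are worth a few reads each and the log2 change of 0.37 ± 0.21 was not called (adjusted p = 0.286). IAA17 averaged 87.2 ± 33.6 FPKM at 29 °C and 120.9 ± 17.7 FPKM at 22 °C, a change of -0.53 ± 0.24 (unadjusted p = 0.038, adjusted p = 0.157); without replicate 3 of pif4 at 29 °C it was -0.80 and called (adjusted p = 0.0289). IAA29 stayed low at both temperatures, at 1.29, 0.316 and 0.49 FPKM at 29 °C, against 0.098, 0.448 and 1.10 FPKM at 22 °C. IAA1, IAA2, IAA3, IAA4 and IAA29 lay between -0.27 and 0.19. The median of the 10 was 0.06, against -0.03 over all genes tested.

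**Figure D2:**
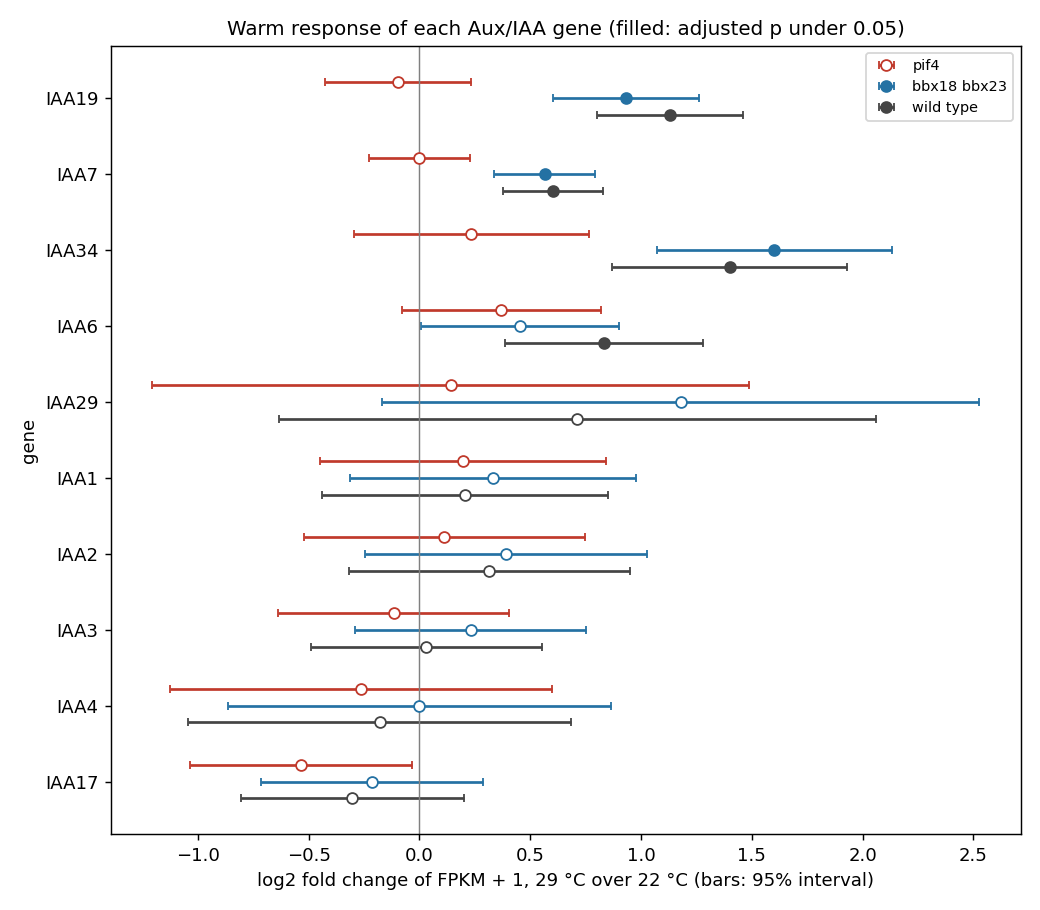
Warm response of each member as the log2 fold change of FPKM + 1, 29 °C over 22 °C, with 95% intervals; red is pif4, blue bbx18 bbx23 and dark grey the wild type, and filled points were called. The intervals of IAA19, IAA7 and IAA34 lay above 0 in the wild type and bbx18 bbx23 and spanned 0 in pif4, and the intervals of IAA29 were the widest.

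The direct comparison of pif4 with the wild type separated 3 members at 29 °C. IAA19 was 0.292 of its wild-type mean in pif4, IAA7 0.633 and IAA34 0.134, and all 3 were called lower. Across the table this comparison called few genes, 26 in either direction (0.136% of all tested), 19 lower (0.0994%) and 7 higher (0.0366%), so 3 of the 19 are members of this family of repressors. This count too is a description, since the members were chosen with earlier results known. The median of the 10 members was -0.54, against 0.01 over all genes tested.

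For IAA19 the pif4 libraries at 29 °C, at 4.51 to 6.81 FPKM, lay far below the wild-type libraries, at 19.6 to 21.2 FPKM. The log2 fold change was -1.64 ± 0.16 (adjusted p = 4.84e-05). It ranged from -1.78 to -1.46 over the alternatives and was lost only when the fit was limited to the libraries compared (adjusted p = 0.063). IAA7 ran from 128.4 to 153.4 FPKM in pif4, against 200.2 to 230.3 FPKM in the wild type, a change of -0.66 ± 0.11 (adjusted p = 0.0139). IAA34 ran from 0.186 to 0.612 FPKM in pif4, against 2.05 to 5.35 FPKM in the wild type, a change of -1.56 ± 0.25 (adjusted p = 0.0122).

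The calls of IAA7 and IAA34 could each be ended by leaving out any 1 of the libraries named next, although neither value changed much. Among the 29 °C libraries, leaving out pif4 replicate 1 (adjusted p = 0.0705) or 2 (0.143), or wild-type replicate 2 (0.0724) or 3 (0.094), ended the call of IAA7, whose value then lay between -0.65 and -0.61. Leaving out pif4 replicate 2 (-1.42, adjusted p = 0.127) or wild-type replicate 3 (-1.28, adjusted p = 0.0693) ended that of IAA34. Both were also lost in a fit of the compared libraries alone (adjusted p = 1.0 for IAA7 and 0.664 for IAA34). Of the 4 green tissue markers 0 were called in this comparison, at 18770 to 29620 FPKM summed in pif4 and 20430 to 33790 FPKM in the wild type.

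The other members were not called at 29 °C. IAA6 averaged 0.553 ± 0.263 FPKM in pif4 and 1.45 ± 0.863 FPKM in the wild type, with overlapping libraries and a change of -0.61 ± 0.21 (unadjusted p = 0.0104, adjusted p = 1.0). IAA29 averaged 0.698 ± 0.519 FPKM in pif4 and 4.26 ± 4.32 FPKM in the wild type, a change of -1.26 ± 0.64 with an interval of -2.60 to 0.09. IAA1, IAA2, IAA3, IAA4 and IAA17 lay between -0.47 and -0.01, IAA17 being the closest to 0 with an interval of -0.52 to 0.49.

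At 22 °C none of the 10 members was called between pif4 and the wild type by limma, against 0.0209% of all genes tested (4 genes). The unadjusted p was under 0.05 for 1 member, IAA19, and for 619 of the 19116 genes tested. IAA19 averaged 6.48 ± 1.26 FPKM in pif4 and 8.94 ± 1.38 FPKM in the wild type, a change of -0.41 ± 0.16 (unadjusted p = 0.0172, adjusted p = 0.988). IAA34 did not overlap at this temperature either, at 0.114 to 0.405 FPKM in pif4 and 0.427 to 1.01 FPKM in the wild type, with a change of -0.40 ± 0.25 that was not called. The gap between these ranges is smaller than 1 read of IAA34, worth about 0.038 to 0.066 FPKM, so the separation is not resolved. For IAA7 the interval was narrow, -0.28 to 0.17. IAA29 differed by -0.69 ± 0.64, and IAA1, IAA2, IAA3, IAA4, IAA6 and IAA17 lay between -0.37 and 0.22. The median of the 10 was -0.21, against 0.04 over all genes tested.

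**Figure D3:**
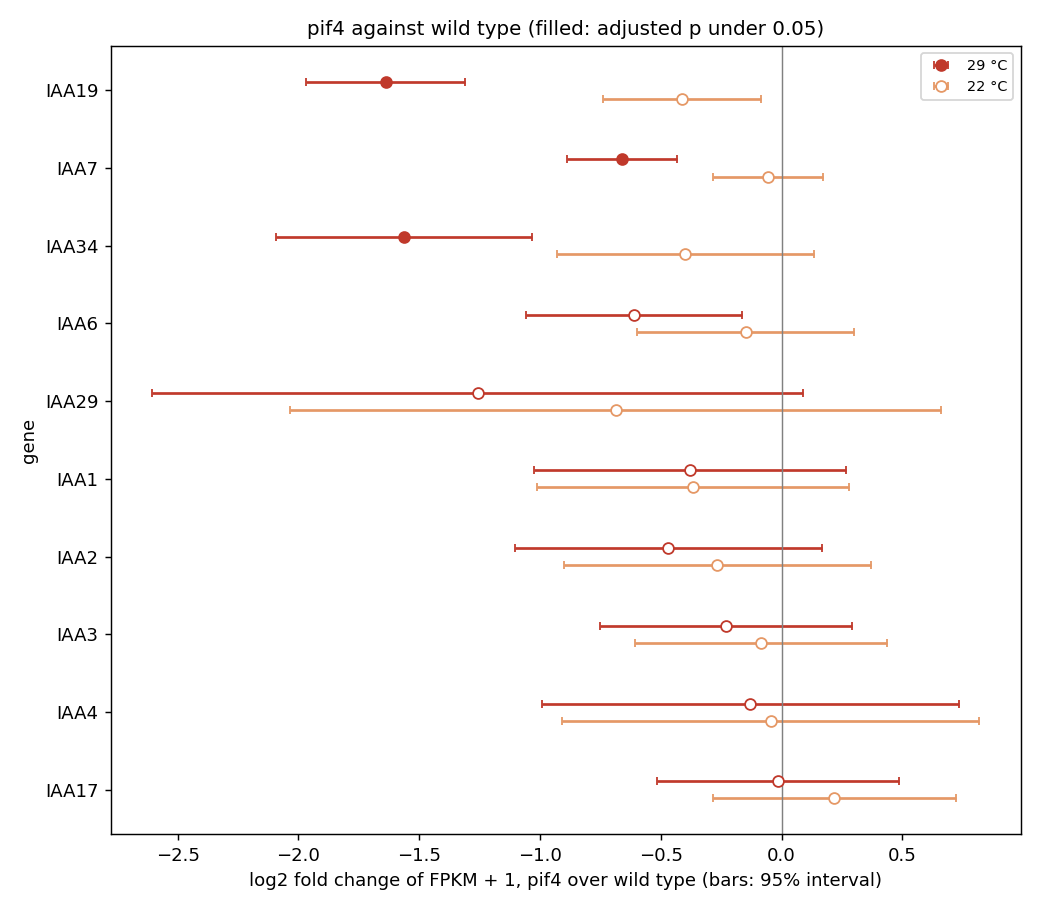
Difference of each member between pif4 and the wild type as the log2 fold change of FPKM + 1, pif4 over wild type, with 95% intervals; red is 29 °C, orange 22 °C, and filled points were called. IAA19, IAA7 and IAA34 were called lower at 29 °C (-1.64, -0.66 and -1.56) and no member was called at 22 °C.

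Whether the warm response itself differed was tested as the difference of the pif4 and wild-type responses, which needs 4 groups and has a larger error. No member was called by limma, against 0.0157% of all genes tested (3 genes). The unadjusted p was under 0.05 for 3 members and for 248 of the 19116 genes tested. The difference for IAA19 was -1.23 ± 0.22 (unadjusted p = 4.05e-05, adjusted p = 0.155). For IAA34 it was -1.17 ± 0.35 (unadjusted p = 0.00454, adjusted p = 1.0) and for IAA7 -0.60 ± 0.15 (unadjusted p = 0.00107, adjusted p = 1.0). These are the same 3 genes that were called between pif4 and the wild type at 29 °C, and both comparisons use the same pif4 and wild-type libraries at 29 °C. For IAA6 the difference was -0.46 ± 0.30 and for IAA29 -0.57 ± 0.90. IAA1, IAA2, IAA3, IAA4 and IAA17 lay between -0.23 and -0.01, and the median of the 10 was -0.35, against -0.03 over all genes tested.

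No member passed the threshold between bbx18 bbx23 and the wild type at either temperature. At 29 °C 0 of 10 were called by limma, against 0.0157% of all genes tested (3 genes). The unadjusted p was under 0.05 for 1 member, IAA19, and for 211 of the 19116 genes tested. IAA19 ran from 14.7 to 16.7 FPKM in bbx18 bbx23, against 19.6 to 21.2 FPKM in the wild type. The groups did not overlap, at 0.770 of the wild-type mean, and the log2 fold change of -0.36 ± 0.16 had an unadjusted p of 0.0341 and an adjusted p of 1.0. IAA7 differed by -0.08 (interval -0.30 to 0.15), IAA34 by -0.10 (interval -0.63 to 0.43) and IAA6 by -0.35 (interval -0.80 to 0.10). IAA1, IAA2, IAA3, IAA4, IAA17 and IAA29 lay between -0.11 and 0.31, and the median of the 10 was -0.04, against 0.02 over all genes tested.

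At 22 °C 0 of 10 members were called between bbx18 bbx23 and the wild type by limma, against 0.0262% of all genes tested (5 genes). No member had an unadjusted p under 0.05, against 249 of the 19116 genes tested. IAA19 averaged 7.85 ± 0.707 FPKM in bbx18 bbx23 and 8.94 ± 1.38 FPKM in the wild type, a change of -0.16 ± 0.16. IAA29 differed by -0.57 and IAA1 by 0.18, with IAA2, IAA3, IAA4, IAA6, IAA7, IAA17 and IAA34 between -0.31 and 0.03. The warm responses of bbx18 bbx23 and the wild type differed by -0.20 ± 0.22 for IAA19, -0.04 ± 0.15 for IAA7 and 0.20 ± 0.35 for IAA34, and by -0.38 for IAA6 to 0.47 for IAA29 over the 10, with IAA1, IAA2, IAA3, IAA4 and IAA17 between 0.08 and 0.20. No member and no gene was called in that difference, where 133 of 19116 genes had an unadjusted p under 0.05. The wild-type libraries are shared by the pif4 and the bbx18 bbx23 comparisons.

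Across the 6 groups IAA19 took the order wild type at 29 °C (20.6 ± 0.846 FPKM), bbx18 bbx23 at 29 °C (15.9 ± 1.05), wild type at 22 °C (8.94 ± 1.38), bbx18 bbx23 at 22 °C (7.85 ± 0.707), pif4 at 22 °C (6.48 ± 1.26) and pif4 at 29 °C (6.03 ± 1.31). The first 2 steps, down to the wild type at 22 °C, were free of overlap, and each of the last 4 groups overlapped with its neighbour. IAA7 showed 2 levels, at 29 °C 205.6 ± 18.8 FPKM in bbx18 bbx23 and 216.4 ± 15.2 FPKM in the wild type, and 136.5 to 142.1 FPKM as the means of the other 4 groups, pif4 at 29 °C among them. IAA34 also had its high groups in bbx18 bbx23 (3.07 ± 0.950 FPKM) and the wild type (3.5 ± 1.69 FPKM) at 29 °C, with means of 0.242 to 0.648 FPKM elsewhere. Over the 18 libraries IAA7 and IAA34 had a Pearson r of 0.93, IAA7 and IAA19 of 0.91 and IAA19 and IAA34 of 0.88, on log2 values and as a description, since the libraries share the 6 groups. IAA17 ran the other way from IAA2 (r = -0.61) and IAA29 (r = -0.49).

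The genes whose pattern was most like IAA19 over the 18 libraries, among 13819 genes with a group mean of at least 5 FPKM and outside the family, were FAR1 (AT5G22500, r = 0.92), AT5G02540 (0.91), AT4G25260 (0.90), ADS1 (AT1G06080, 0.90) and AT2G47780 (0.87). FAR1, a fatty acyl reductase at this locus, averaged 7.31 FPKM in pif4, 27.2 FPKM in bbx18 bbx23 and 38.6 FPKM in wild-type seedlings at 29 °C, and AT5G02540 averaged 14.7, 82.4 and 114.0 FPKM in the same 3 groups. Among the 29 °C groups both were lowest in pif4, as IAA19 was. The likeness is a description chosen from the same libraries.

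IAA29 had other company. The highest r belonged to HB-2 (AT4G16780, 0.89), a homeodomain gene known as a shade marker under the name ATHB2, followed by P1R3 (AT3G29370), AT5G01740, AT5G44260 and AT1G26920 (0.85 to 0.86). HB-2 read 23.8, 4.05 and 15.2 FPKM in the wild type at 29 °C, high in the same library as IAA29 and low in the same library.

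That order of libraries recurred in all 3 genotypes at 29 °C. IAA29 in the libraries numbered 2 and 1 read 0.316 and 1.29 FPKM in pif4, 0.516 and 8.64 FPKM in bbx18 bbx23, and 0.38 and 8.92 FPKM in the wild type. On the log2 scale replicate 2 minus replicate 1 was -2.85 to -0.80. IAA4 went the same way, with 17.3 and 43.8 FPKM in pif4, 21.6 and 45.7 FPKM in bbx18 bbx23, and 16.3 and 36.3 FPKM in the wild type for libraries 2 and 1, a difference of -1.29 to -1.05.

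IAA1 and IAA2 were also lower in library 2 than in library 1 at 29 °C in all 3 genotypes (mean -0.49 and -0.55), and IAA17 and IAA3 were higher (mean 0.59 and 0.36). IAA7 differed by at most 0.13 and IAA19 by at most 0.50 in size, while IAA34 and IAA6 differed in sign between genotypes. At 22 °C IAA1, IAA2, IAA4 and IAA29 were higher in library 2 than in library 1 in all 3 genotypes, by 0.44 to 0.73 on average.

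Genes that follow light and time of day moved with those library numbers at 29 °C. ELIP1, a light-stress gene, was higher in library 2 than in library 1 by 4.14 to 4.50 on the log2 scale, and the clock genes PRR9 by 3.38 to 3.54, GI by 2.01 to 2.75 and CCA1 by 1.03 to 1.31. LHY, PRR7, LUX and ELF4 were higher in library 2 by 0.37 to 0.91 on average and TOC1 lower by 0.46 to 0.49. At 22 °C the mean differences of the 9 genes ran from -0.50 to 0.24. Between 29 °C and 22 °C in the wild type LUX (2.47), ELF4 (2.18) and TOC1 (1.43) were called higher and LHY (-1.34) lower. That is 3 higher and 1 lower of 9, against 5.63% and 8.55% of all genes tested. These genes were called in the same directions in bbx18 bbx23 and pif4, and PRR7 was also called higher in pif4 (0.90). The part of the 9 genes in the spread of IAA29, IAA4, IAA1 and IAA2, or in the warm response of the members, was not tested. Without the 3 libraries numbered 2 at 29 °C, the warm change of IAA29 was 1.81 ± 0.48 in bbx18 bbx23, which was called (adjusted p = 0.0273), and 1.47 ± 0.48 in the wild type, which was not (adjusted p = 0.0657). Without the 3 libraries numbered 1 it was 0.48 and 0.05 in those genotypes.

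**Figure D4:**
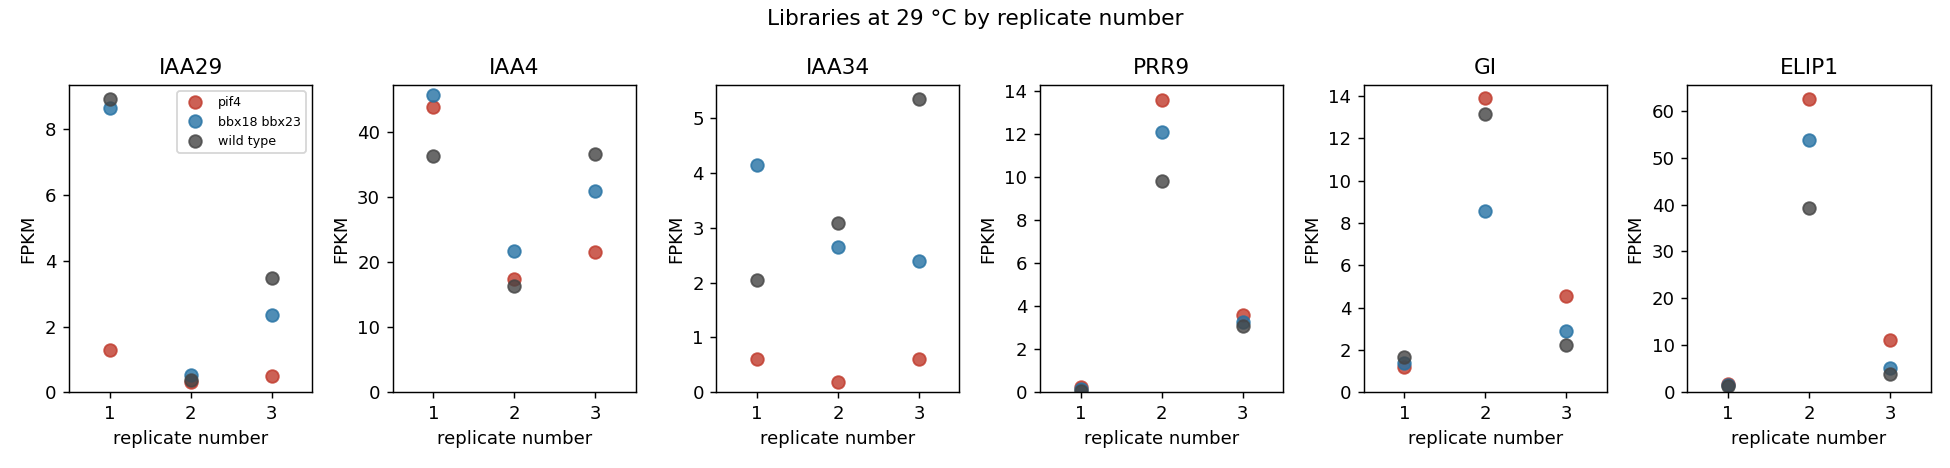
FPKM at 29 °C by replicate number for IAA29, IAA4 and IAA34 and for the time-of-day and light genes PRR9, GI and ELIP1, 1 point per library, with red for pif4, blue for bbx18 bbx23 and dark grey for the wild type. In all 3 genotypes library 2 was the lowest for IAA29 and IAA4 and the highest for PRR9, GI and ELIP1, while IAA34 had no order of libraries common to the genotypes.

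The other genes of the pathway were counted in the same warm response of the wild type. There 14.2% of all genes tested were called and 8.55% were lower, and each count is to be read against those shares. These lists, like the members, were chosen with earlier results of these data known. Of the 19 other Aux/IAA genes 15 were tested, 0 were higher and 1, IAA8, was lower, with a median of 0.00. IAA8 averaged 124.4 ± 8.38 FPKM at 29 °C and 172.6 ± 9.93 FPKM at 22 °C in the wild type, a log2 fold change of -0.47 ± 0.11 (adjusted p = 0.00957), and was also called lower in bbx18 bbx23 (-0.43) and pif4 (-0.57). IAA31, a gene without the degron core, was called higher at 29 °C in bbx18 bbx23, at 2.34 ± 0.848 FPKM against 0.961 ± 0.727 FPKM at 22 °C (0.80 ± 0.24, adjusted p = 0.0333). It was the 1 of 15 called higher there, against 5.52% of all genes tested. In the wild type its change was 0.48 ± 0.24 and was not called (adjusted p = 0.204). IAA14 (SLR), the neighbour of IAA1 on chromosome 4 with no protein-coding gene between, was not called (-0.35 ± 0.17, adjusted p = 0.2). IAA7 and IAA2, and IAA17 and IAA3, are neighbours of the same kind, and the difference in warm change within a pair was not tested.

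None of the 6 auxin receptors TIR1 and AFB1 to AFB5 was called in the wild-type warm response by limma, with values from -0.21 to 0.19. Of the 15 auxin response factors listed, 2 were called lower and 0 higher. ARF10, a repressor-type factor and microRNA target, averaged 9.62 ± 0.874 FPKM at 29 °C and 13.9 ± 0.555 FPKM at 22 °C in the wild type (-0.49 ± 0.10, adjusted p = 0.0036), and fell by 0.49 in bbx18 bbx23 and by 0.53 in pif4. ARF4, known from leaf polarity, averaged 9.50 ± 1.23 FPKM at 29 °C and 12.7 ± 0.719 FPKM at 22 °C (-0.39 ± 0.11, adjusted p = 0.0261). It was not called by limma in bbx18 bbx23 (-0.14, adjusted p = 0.447) or in pif4 (-0.30, adjusted p = 0.0903). None of the 5 TOPLESS genes was called in the wild type. In bbx18 bbx23 2 of them, TPR2 (-0.58) and TPR3 (-0.52), were called lower, against 8.06% of all genes tested. In the wild type TPR2 changed by -0.42 (adjusted p = 0.0888) and TPR3 by -0.43 (adjusted p = 0.0829), and neither was called in the difference of the 2 responses. Between pif4 and wild-type seedlings at 29 °C none of the other Aux/IAA, receptor, auxin response factor or TOPLESS genes was called by limma, where 0.136% of all genes tested were.

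Sequence likeness within the family was modest. No other transcript of the reference matched any of the 10 at 90% identity over 50% of its length, and the longest matches were IAA1 with IAA2 (81.5% identity), IAA3 with IAA4 (74.0%) and IAA19 with IAA6 (70.6%). IAA3 overlaps AT1G04230 on the opposite strand and IAA34 overlaps AT1G15060 on the same strand, and no source used here gives the strand setting of the counting. Reads of the overlapping parts cannot be told apart for these 2 genes, so the values of IAA3 and IAA34, the calls of IAA34 above among them, are uncertain by that share.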

How the data were processed

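RNA was extracted with Trizol from frozen seedlings and made into TruSeq libraries, per the labels' protocols. The authors deposited FPKM per gene with 1 column for each of the 18 libraries. The submitters' processing notes name Bowtie 0.12.2 and the build mm8, which is a mouse build, so no source used here gives the genome, annotation or counter that made them. Gene names, neighbours and sequences came from RefSeq TAIR10.1, in which 32835 of 33602 identifiers were found; it was not used for the values. Read totals are not in the table, so no counting intervals are given.

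The 19116 genes that reached 1 FPKM in 3 or more libraries were fitted with limma 3.58.1 (R 4.3.3) on log2(FPKM + 1), all 18 libraries, 6 groups and trended empirical Bayes variances. The 9 contrasts were tested on 2 sides and adjusted by Benjamini-Hochberg within each, at 0.05. Copies were searched with blastn 2.17.0. The method was tested on simulated data. All 10 members are named in every comparison, singly or by the range of those not called, with pathway list genes called for the wild-type warm response, for pif4 over wild type at 29 °C or for the difference of their warm responses, up to 4 per list, and 5 genes most like IAA19 and IAA29. IAA14, IAA31, TPR2, TPR3 and time-of-day genes not called were named after their values were seen. The members and lists were chosen with earlier results of these data known.

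Alternatives were a pseudocount of 0.1, no filter, size factors, only the libraries compared, leaving out libraries, and a replicate block. Replicate numbers pair libraries where each deviation correlation exceeded 0.1, which held for pif4 and the wild type at 22 °C (0.50, 0.49 and 0.60) and for bbx18 bbx23 and the wild type at 29 °C (0.70, 0.73 and 0.24); the labels do not say what a number marks.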

Additional observations from a re-analysis of the deposited data

How the results depend on the processing

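Of the 10 member values that were called, 6 stayed called under every alternative run: the warm rises of IAA19, IAA7 and IAA34 in the wild type and in bbx18 bbx23. Of 1340 member values under alternatives, 16 lost a call, 6 gained one, and 115 changed sign with neither value called; no called value changed sign. Beside the losses given above, the call of IAA6 in the wild type was lost with only the libraries compared (adjusted p = 0.088), as were all 3 members lower in pif4 at 29 °C (IAA19 0.063, IAA34 0.664, IAA7 1.0); IAA34 was also lost with a pseudocount of 0.1 (-2.68, adjusted p = 0.0688) and without all 29 °C libraries numbered 2 (0.326), and IAA7 without those numbered 1 (0.141) or 2 (0.56). With a replicate block within temperature, IAA29 rose in bbx18 bbx23 (adjusted p = 0.0151) and IAA17 fell in pif4 (0.0168). The difference of the pif4 and wild-type warm responses of IAA19 was called with a replicate block over all libraries (0.043) and within temperature (0.0266). By the rule above, the numbers pair the pif4 and wild-type libraries of that difference at 22 °C (0.50, 0.49 and 0.60). At 29 °C they do not (0.47, 0.69 and -0.32). In the 2 comparisons where the numbers pair libraries, the block changed no member's call. Only the libraries compared gave 1289 genes called for the wild-type warm response (2711 with all libraries), 1096 for that of pif4 (2515), 6 for pif4 over wild type at 29 °C (26) with 0 members, and 0 and 1 for bbx18 bbx23 over wild type at 29 °C and 22 °C (3 and 5). The replicate block within temperature gave 4731, 4786 and 4621 genes in the warm responses of the wild type, bbx18 bbx23 and pif4 (1 member in pif4), 47 and 13 for pif4 over wild type at 29 °C and 22 °C, and 8 for the difference of the pif4 and wild-type responses (1 member), where the block over all libraries gave 5 (1 member). Without all 29 °C libraries numbered 1 or 2, pif4 against the wild type called 14 and 13 genes (1 member without those numbered 2) and bbx18 bbx23 against the wild type 0 and 0. No filter gave 7 genes for pif4 over wild type at 22 °C and 1 for the difference of pif4 and wild-type responses, where a pseudocount of 0.1 gave 0. With single libraries left out, genes called ran from 1519 to 2060 for the bbx18 bbx23 warm response, 1524 to 2518 for that of pif4 (0 to 1 members), 15 to 29 for pif4 over wild type at 29 °C (1 to 3 members), 1 to 4 for bbx18 bbx23 over wild type at 22 °C and 0 to 6 for the difference of pif4 and wild-type responses. The cause of these shifts was not tested; depth limits IAA6, IAA34 and IAA29 most, whose low values are a few reads.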
